A study of Mus musculus with 16 samples.

Results

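The very broad SETD5-V5 domains are 447 regions of the mouse genome that lay under long, unbroken stretches of tagged SETD5 6 h after 3T3-L1 preadipocytes were induced to become fat cells. They were chosen from the 35573 enriched regions (islands) of SETD5-V5 replicate A at 6 h as those of 20000 bp or longer that overlapped an island of 20000 bp or longer in replicate B. Replicate A held 925 islands of that length and replicate B held 569, of which 473 met a domain. The length and the presence at 6 h are therefore the choice itself and carry no test. What the choice did not use is described here: the genes under the domains, their SETD5-V5 islands at 0 h, endogenous SETD5, H3K27ac and H3K4me1.

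The cells, 3T3-L1, are mouse fibroblasts that can turn into adipocytes in culture, and they were induced with MDI, a mixture of insulin, dexamethasone and the phosphodiesterase inhibitor IBMX. ChIP-seq was deposited as 16 lists of islands. SETD5-V5 was precipitated with an antibody to V5 at 0 h and 6 h (replicates A and B at each time), and H3K27ac at day 0 and day 2, here 0 h and 48 h, in cells with an empty vector and in cells with the SETD5-V5 virus (replicates A and B of each). Endogenous SETD5 at 0 h and 6 h and H3K4me1 at 0 h and 48 h had 1 library each, so their changes have no replicate check. The SETD5-V5 cells carry mouse SETD5 from a retrovirus with a weak promoter, in addition to their own SETD5, with V5 at the C terminus, and were stably transduced. Unless stated otherwise, the study worked with the transduced line of moderate rather than high SETD5-V5 expression. It does not name the line for each library. Endogenous SETD5 was precipitated from cells without that virus. The virus label of SETD5-V5 replicate A is a dash while its title names SETD5-V5, and the labels of both H3K4me1 libraries name the virus while the study's methods show untransduced cells. Groups were taken from the titles. The study's methods call A and B biological replicates.

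SETD5 is a SET domain protein that works with the NCoR and HDAC3 corepressor complex, which removes acetyl groups from histones. H3K27ac marks active promoters and enhancers, and H3K4me1 marks enhancers that are primed or active. Regulatory proteins are usually seen as narrow peaks, while proteins that travel with transcribing polymerase or spread along chromatin can cover whole gene bodies. Dexamethasone acts through the glucocorticoid receptor and IBMX raises cyclic AMP, and both switch on sets of immediate response genes.

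The lists give positions and a score but no read counts, so the number of reads behind each island is unknown. A region without an island was below the threshold of the caller. Each list was read as cover, the percentage of a domain's bases that lay under islands of that library. SETD5-V5 lists held 16054 and 6666 islands at 0 h (85.6 and 35.3 Mb in A and B) and 35573 and 27220 at 6 h (196.1 and 147.9 Mb), so replicate B at 0 h was the shortest of the 4. H3K27ac lists held 31292 to 39949 islands and 103.4 to 121.5 Mb. Endogenous SETD5 lists held 2132 islands (10.6 Mb) at 0 h and 3293 (23.3 Mb) at 6 h. H3K27ac islands lay within 1000 bp of the starts of 7 of 8 preadipocyte markers in all 8 lists (Cd34 in 3 of 8 lists), and at the starts of 10 markers of other lineages in 0 of 8 lists. A group of 19 domains was covered by endogenous SETD5 and by H3K4me1 over 90% or more of its bases at both times. These 19 are described apart, and counts are also given over the other 428.

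The domains spanned 20.6 Mb in all. Their median length was 36800 bp, with quartiles of 26900 and 51900 bp, and the longest had 294200 bp. Just inside the length minimum were domains at Ksr1, Vcan and 1110020G09Rik, each of 20000 bp, and just outside were islands at Shoc2, Antxr1 and Sntb2, each of 19800 bp. For 392 of the 447 domains a single island of replicate B met the domain, and the median domain shared 85.0% of its bases with replicate B islands of the same class. Because long islands can break at small gaps, 103 domains lay within 5000 bp of another domain, and 43 genes headed more than 1 domain, with 5 domains each at Glis3, Rbfox2 and Snd1. Domains are not independent units in that sense. For comparison, 1130 islands of 10000 bp up to just under 20000 bp that overlapped one of 10000 bp or longer in replicate B were taken as the next tier, and the remaining 35126 islands of replicate A at 6 h as all other islands (the next tier is among them).

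The sequences below are the 250 bases before the annotated start of 7 genes that the results turn on: genes of the glucocorticoid response with whole gene bodies under a domain (Fkbp5, Errfi1, Dusp1, Klf9, Per1) and matrix genes covered already at 0 h (Thbs1, Col1a1). They are read from the mm9 genome on the strand of the gene, 5′ to 3′. Capitals mark exact matches, on either strand, to the cyclic AMP element TGACGTCA, the AP-1 site TGANTCA, the C/EBP site TTGCNNAA or the TATA box TATAAA.
Fkbp5 (mm9 chr17:28623095-28623344, minus strand): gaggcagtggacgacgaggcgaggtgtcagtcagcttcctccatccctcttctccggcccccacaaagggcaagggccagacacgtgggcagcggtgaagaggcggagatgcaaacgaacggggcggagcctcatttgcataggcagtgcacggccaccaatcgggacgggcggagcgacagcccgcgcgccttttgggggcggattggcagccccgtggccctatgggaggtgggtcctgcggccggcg
Errfi1 (mm9 chr4:150228932-150229181, plus strand): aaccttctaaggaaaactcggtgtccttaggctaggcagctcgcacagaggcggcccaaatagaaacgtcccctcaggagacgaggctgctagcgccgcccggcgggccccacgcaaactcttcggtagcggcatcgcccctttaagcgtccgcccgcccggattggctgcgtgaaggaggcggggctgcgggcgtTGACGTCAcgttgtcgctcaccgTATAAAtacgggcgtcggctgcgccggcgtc
Dusp1 (mm9 chr17:26645465-26645714, minus strand): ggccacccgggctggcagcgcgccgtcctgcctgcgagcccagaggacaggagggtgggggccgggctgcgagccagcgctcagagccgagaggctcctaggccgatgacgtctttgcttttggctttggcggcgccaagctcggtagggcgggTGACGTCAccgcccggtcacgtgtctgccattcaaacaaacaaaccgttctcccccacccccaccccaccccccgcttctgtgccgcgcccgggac
Klf9 (mm9 chr19:23215466-23215715, plus strand): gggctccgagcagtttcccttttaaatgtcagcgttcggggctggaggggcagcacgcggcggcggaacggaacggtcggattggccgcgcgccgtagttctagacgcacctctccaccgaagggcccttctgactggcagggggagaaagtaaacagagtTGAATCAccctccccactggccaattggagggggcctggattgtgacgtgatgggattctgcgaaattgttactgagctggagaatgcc
Per1 (mm9 chr11:68912200-68912449, plus strand): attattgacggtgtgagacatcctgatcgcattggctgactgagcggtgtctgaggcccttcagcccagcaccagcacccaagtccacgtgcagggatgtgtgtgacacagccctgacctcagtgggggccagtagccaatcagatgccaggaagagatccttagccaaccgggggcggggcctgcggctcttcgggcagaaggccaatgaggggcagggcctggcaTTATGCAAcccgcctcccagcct
Thbs1 (mm9 chr2:117937362-117937611, plus strand): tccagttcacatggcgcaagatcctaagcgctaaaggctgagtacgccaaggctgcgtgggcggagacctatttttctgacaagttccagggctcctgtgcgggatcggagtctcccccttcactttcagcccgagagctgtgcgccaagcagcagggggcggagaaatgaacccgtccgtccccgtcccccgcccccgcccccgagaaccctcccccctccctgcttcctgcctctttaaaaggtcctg
Col1a1 (mm9 chr11:94797288-94797537, plus strand): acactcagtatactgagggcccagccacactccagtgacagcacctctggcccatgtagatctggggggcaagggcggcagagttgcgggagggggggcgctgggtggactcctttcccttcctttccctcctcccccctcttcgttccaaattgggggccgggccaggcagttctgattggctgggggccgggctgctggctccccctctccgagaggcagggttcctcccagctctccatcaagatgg

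In Dusp1 the cyclic AMP element lay from -96 to -89, counted from the start site, and in Errfi1 from -54 to -47, followed by a TATA box from -31 to -26. Klf9 held an AP-1 site from -89 to -83, and Per1 a C/EBP site from -23 to -16. Of the 250 bases before Errfi1, 124 also lay in an exon of 1700045H11Rik. Fkbp5 and Thbs1 held none of these letters in the window searched, which ran to 50 bases past the start, and the match in Col1a1 was a TATAAA in the first 6 bases of the gene, outside the bases shown. Over the 423 promoters of 22375 whose start lay in a domain, 2.84% held the cyclic AMP element against 2.35% of all promoters. The other shares were 4.26% against 6.70% for AP-1, 8.04% against 10.1% for C/EBP, and 6.15% against 13.3% for the TATA box. The CArG box of serum response factor was in 0.946% of them against 1.46% of all promoters. The shares are a description of letters in these windows.

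Domains lay over genes. Protein-coding genes held 77.2% of their bases, against 65.7% in the next tier and 59.7% in all other islands, and exons held 6.84%. In all, 422 domains (94.4%) met at least 1 protein-coding gene and 294 met exactly 1, while 112 met 2 or 3 and 16 met 4 or more. Each domain was named by the gene with which it shared most bases, which gave 353 different genes. A whole gene lay inside the domain in 146 of the 422 (34.6%), and for these the median gene was 19839 bp long, with 4180.5 bp of domain before its start and 10653 bp past its end. The domain covered the start but not the end of the gene in 125 (29.6%), the end but not the start in 39 (9.24%), and lay inside the gene in 112 (26.5%), where the median gene had 207400 bp. In the next tier, whole genes made up 14.7% of 906 and positions inside a gene 45.1%. At least 50% of the leading gene was covered in 233 domains (55.2%), and in 22.8% of the next tier, whose islands are shorter by choice. Seen from the genes, 370 of 22380 protein-coding genes (1.65%) lay under domains over at least 50% of their length, as did 185 of the 9718 genes of 20000 bp or longer (1.90%).

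Along the gene body, SETD5-V5 and H3K27ac had different shapes. Over 151 genes of 20000 bp or longer that were at least 50% covered by domains and not in the group of 19, SETD5-V5 at 6 h covered 97.1% (A) and 93.3% (B) of the first 10% of the gene, and 96.8% and 93.9% of the stretch from 25% to 75%. It still covered 88.7% and 80.6% of the last 25%, and 88.3% and 77.5% of the same genes just past their ends, in a stretch as long as 10% of the gene. These profiles follow in part from the choice of long islands. At 0 h, which the choice did not use, cover was lower at the end than at the beginning: A had 74.5%, 64.8% and 53.9% in the first 10%, the middle and the last 25%, and B had 42.5%, 41.6% and 29.7%.

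H3K27ac covered 67.9% and 64.5% of the first 10% of these genes in empty vector cells at 0 h, but only 25.8% and 20% of the middle and 14.3% and 12.2% of the last 25%. At 48 h the same values were 80.2% and 78.3% at the beginning, 37.9% and 35.1% in the middle, and 22.7% and 20.7% at the end. SETD5 cells had a like shape, with 64.9% and 70.5% at the beginning and 12.7% and 13.9% at the end at 0 h. Endogenous SETD5 at 6 h covered 53.1% of the first 10%, 31.4% of the middle and 27.6% of the end, against 7.42%, 2.82% and 1.85% at 0 h. The acetylation mark, which the choice did not use, was thus concentrated at the beginnings of these genes. SETD5-V5 islands at 6 h continued through the body and past the end, which follows in part from the choice of long islands. The contrast of the 2 shapes is therefore a description and was not tested.

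**Figure D1:**
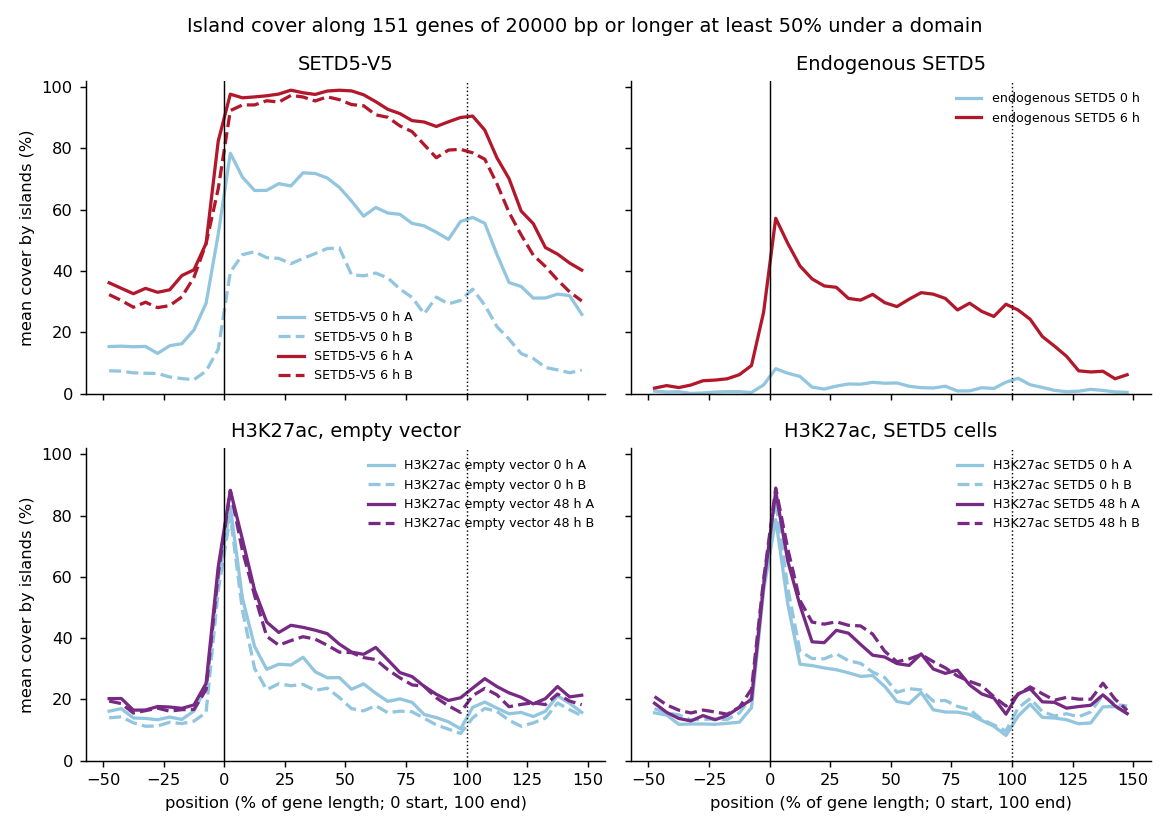
Average cover along 151 long genes that lie at least 50% under SETD5-V5 domains, in percent of bases (y axis) against position from before the start to past the end of the gene (x axis), with 1 line per library. Averaged over the beginning, middle and end, SETD5-V5 at 6 h lies between 88.7% and 97.1% in A and between 80.6% and 93.9% in B, while H3K27ac is highest in the first 10% of the gene (64.5% to 80.2% in empty vector cells) and lower along the body.

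Domains covered genes of several of the lists examined, and counts of covered genes (at least 50% of the length) are to be read beside the 1.65% of all protein-coding genes and 1.90% of those of 20000 bp or longer. The lists were chosen with results of these data known, so their shares are a description and their order is not a finding. Of 18 glucocorticoid-responsive genes 7 were covered (38.9%): Fkbp5, a co-chaperone of the glucocorticoid receptor, Per1, a clock gene, Klf9, a zinc-finger factor, Errfi1, a feedback inhibitor of the EGF receptor, Dusp1, a phosphatase of MAP kinases, and the metallothioneins Mt1 and Mt2, which share a domain of 25200 bp. Listed genes without a domain were Tsc22d3, Zbtb16, Sgk1, Nfkbia and Cebpd among others, and Nfkbia and Cebpd lay wholly under shorter islands of up to 17000 and 10600 bp.

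Fkbp5 (ENSMUSG00000024222.9, minus strand) lay whole in a domain of 149200 bp at chr17:28519601-28668800. At 0 h, SETD5-V5 islands covered 15.9% of the gene in A and 0% in B. Endogenous SETD5 covered 0% at 0 h and 60.8% at 6 h. SETD5 islands were thus few or absent over the gene at 0 h. The long SETD5-V5 stretch at 6 h is the choice itself. Endogenous SETD5 over the domain at 6 h lay in islands of up to 15200 bp. The acetylated length of the gene was greater at 48 h than at 0 h. H3K27ac covered 15% and 16.7% at 0 h in empty vector cells, and then 85.5% and 87.7% at 48 h. In SETD5 cells it covered 23.3% and 24.1% at 0 h and 78.4% and 84.8% at 48 h, and in neither vector did the values of the times overlap.

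Errfi1 (ENSMUSG00000028967.4) lay in a domain of 26800 bp at chr4:150227401-150254200. SETD5-V5 at 0 h covered 72.1% of the gene in A and 0% in B, and endogenous SETD5 0% at 0 h and 92.2% at 6 h. H3K27ac cover was 13.4% and 8.01% at 0 h and 100% in both replicates at 48 h in empty vector cells, and 13.4% and 18.5% against 100% and 100% in SETD5 cells. Among the covered genes of the lists, Errfi1 had the widest separation of the times, and it was the same in both vectors.

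Klf9 and Per1 were covered by endogenous SETD5 in the same way, from 0% at 0 h to 92.2% and 84.5% at 6 h. Their SETD5-V5 cover at 0 h was 96.9% (A) and 25.7% (B) for Klf9, and 79.1% and 0% for Per1. H3K27ac over Klf9 was 21.4% and 24.5% at 0 h and 60.3% and 43.2% at 48 h in empty vector cells, whereas over Per1 it was 37.2% and 37.2% against 56.2% and 38.5%. Dusp1 and Mt1, both short genes, lay fully or mostly under SETD5-V5 at 0 h (100% and 100%, and 100% and 82.9%), and had no endogenous island at 0 h and 100% cover at 6 h. In all 7 covered genes of the list, then, endogenous SETD5 was at 0% at 0 h and between 60.8% and 100% at 6 h. The state at 0 h was the usual one, since 340 of the 447 domains had no endogenous island then. At 6 h 295 of the 447 had one.

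The cyclic AMP list had 2 of 18 members covered (11.1%, beside 1.65% of all protein-coding genes), Nr4a1, an orphan nuclear receptor, and Sik1, a salt-inducible kinase, and Pde4b, a cyclic AMP phosphodiesterase, was covered over 4.58%. Nr4a1 lay in a domain of 90800 bp on chromosome 15 that is named for its neighbour Grasp. SETD5-V5 covered the gene over 100% in A and 0% in B at 0 h, and endogenous SETD5 over 0% at 0 h and 100% at 6 h. H3K27ac was at 29.2% and 14.1% at 0 h and 100% and 84.6% at 48 h in empty vector cells, and at 16.7% and 36.8% against 94.7% and 100% in SETD5 cells. Sik1 was already under SETD5-V5 (100% and 95.3%) and endogenous SETD5 (60.6%) at 0 h. Other immediate early genes of the list such as Fos, Junb, Fosl2 and Rgs2 lay under SETD5-V5 islands at 6 h over 76.4% to 100% of the gene, but these did not reach the length minimum in both replicates.

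Of 14 genes of insulin signalling and glycolysis, 3 were covered (21.4%, beside the same 1.65%): Irs2, an insulin receptor substrate, Hk2, a hexokinase, and Pkm2, a pyruvate kinase. None of the 3 had a SETD5-V5 island at 0 h in replicate B, and A covered 63.6%, 20.3% and 45.6% of them. Irs2 had endogenous SETD5 over 0% at 0 h and 96.3% at 6 h. Its H3K27ac cover was 40.3% and 8.65% at 0 h and 97.2% and 89.7% at 48 h in empty vector cells, and 34.7% and 48.7% against 56.1% and 67.3% in SETD5 cells. Hk2, of which 68.9% lay in a domain, had no endogenous island at either time. Its H3K27ac cover was 15.1% and 14.6% at 0 h and 51.5% and 39.7% at 48 h in empty vector cells, but 15.9% and 15.5% against 19.5% and 21.9% in SETD5 cells. At both genes the SETD5 cells were thus below both empty vector replicates at 48 h, a difference of single genes that was not tested.

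Of 30 extracellular matrix genes, 8 were covered (26.7%, beside 1.65% of all protein-coding genes): Col1a1, Col1a2, Col4a1, Col4a2, Thbs1, Fbn1, Sparc and Lox. The first 2 encode the chains of type I collagen and were under SETD5-V5 over 100% in both replicates at 0 h, as was Thbs1, the gene of thrombospondin 1. Endogenous SETD5 lay over Col1a1 at 64.2% at 0 h and 91.3% at 6 h, over Col1a2 at 86.4% and 33.6%, and over Thbs1 at 75.2% and 52.4%. H3K27ac over Col1a2 was 90.9% and 82.7% at 0 h and 19% and 19.6% at 48 h in empty vector cells, and 86.5% and 84.4% against 13.6% and 28.3% in SETD5 cells. Over Thbs1 it was 62.8% and 47.1% against 39.3% and 20.9% in empty vector cells. Col1a1 kept more, with 90.7% and 95.2% against 78.9% and 82.4%. Col1a1, Col1a2 and Thbs1 were thus covered before induction, and Col1a2 was the one with the largest difference between the times among the covered matrix genes.

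Col4a1 and Col4a2, which encode basement membrane collagen, start 21 bp apart on opposite strands and shared a domain of 273600 bp at chr8:11185801-11459400, the second longest of all. SETD5-V5 covered 83.1% and 53.7% of Col4a1 and 70.4% and 37.1% of Col4a2 at 0 h. Endogenous SETD5 covered 2.80% of Col4a1 at 0 h and 100% at 6 h, and 0% and 89.2% of Col4a2. H3K27ac over Col4a2 was 26.1% and 17.9% at 0 h and 71.5% and 68.1% at 48 h in empty vector cells, and 29.5% and 32.7% against 51.7% and 56.8% in SETD5 cells. In endogenous SETD5 and H3K27ac the order of the times over this pair was that of Fkbp5, while its SETD5-V5 cover at 0 h lay between those of Fkbp5 and the type I collagen genes. Fbn1, which encodes fibrillin 1, was covered over 69.0% by separate domains. Sparc and Lox had no endogenous island at 0 h, and at 6 h Sparc had 67.2% and Lox 0%.

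Of 23 annotated genes of the actin cytoskeleton and adhesion, 6 were covered (26.1%, beside the same 1.65%): Actn1 (alpha-actinin), Myh9 (non-muscle myosin heavy chain), Tpm4 (tropomyosin), Lmna (lamin A), Ahnak and Itga5 (an integrin chain). Actn1 lay in a domain of 109800 bp, with SETD5-V5 over 53.6% and 10.1% of the gene at 0 h, whereas Myh9 was at 99% and 92.1%. Endogenous SETD5 at 6 h ranged from 4.41% over Myh9 to 100% over Itga5. H3K27ac over Actn1 was 16.5% and 10.3% at 0 h and 30.8% and 28.8% at 48 h in empty vector cells, and 24.7% and 28.6% against 37.2% and 43.5% in SETD5 cells.

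No gene of the list of 18 adipogenic regulators met a domain. Of all 22380 protein-coding genes only 547 met one, so meeting none in a list this short is not a finding. Cebpb and Cebpd, the early C/EBP factors, were wholly under SETD5-V5 at 6 h in both replicates, but replicate B islands at Cebpb were at most 19800 bp, just under the minimum, and A had one of 24000 bp. Pparg was covered over 69.3% and 75.4% by islands of up to 15000 and 18600 bp, and Cebpa over 73.8% in A and 0% in B. Setd5 itself was covered by a domain over 45.8% of its length, where islands of the gene and of the coding sequence that the virus carries cannot be told apart. The other 7 members of the corepressor list met no domain, which is no finding beside the same background. The translation and chaperone list had 1 of 12, Myc, with SETD5-V5 at 89.4% and 45.2% at 0 h and endogenous SETD5 at 0% and 100%. Of 7 long noncoding RNAs, Neat1 and Malat1 were covered, both in a domain of 70400 bp on chromosome 19, and both were at 100% in SETD5-V5 at 0 h and in endogenous SETD5 at both times.

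**Figure D2:**
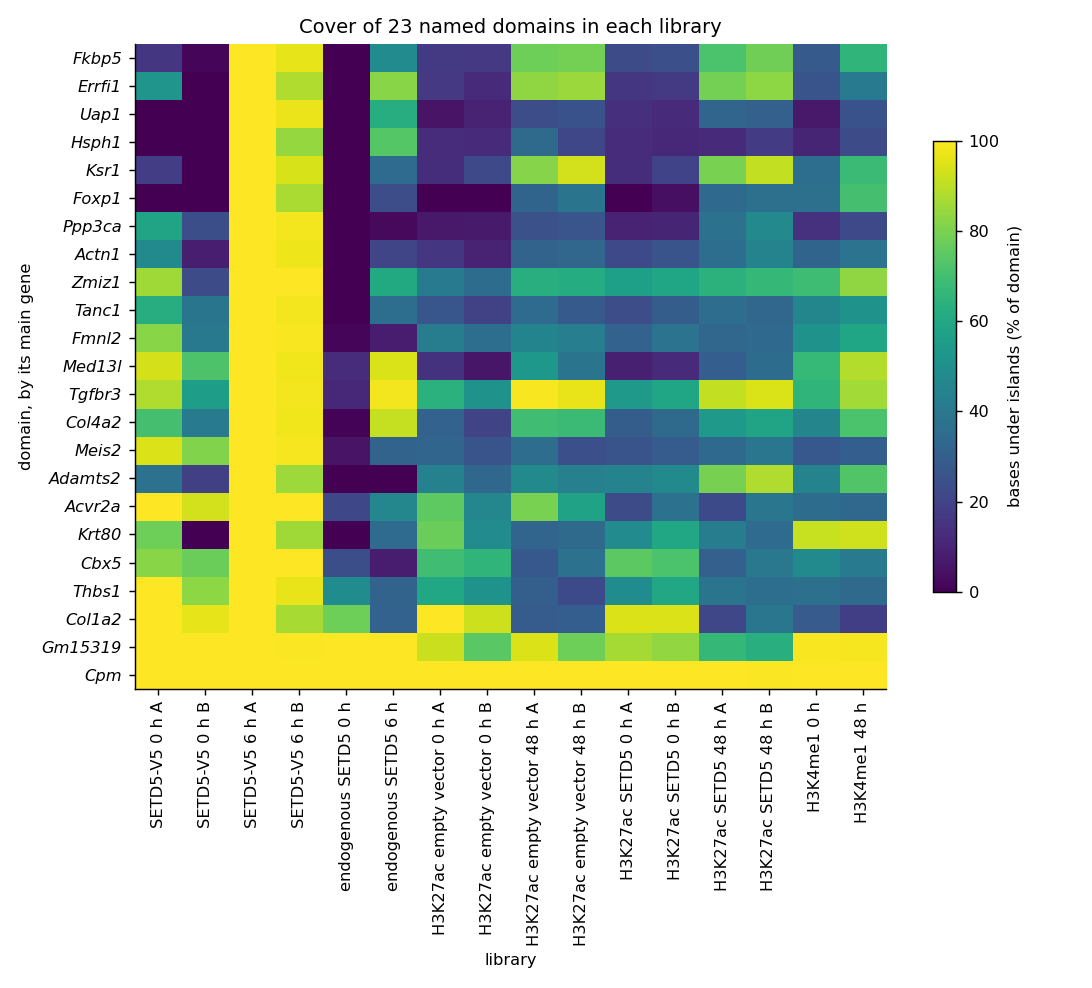
Cover of 23 named domains (y axis) in each of the 16 libraries (x axis), in percent of the domain's bases (colour scale, dark at 0% to yellow at 100%). Fkbp5, Uap1 and Hsph1 are dark in the 0 h SETD5-V5 and endogenous SETD5 columns and green to yellow in those of 6 h, and Col1a2 and Thbs1 are bright in SETD5-V5 at 0 h.

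By the length shared between both replicates the leading domains included those named for Cpm, Col4a2, Meis2, Ppp3ca, Fmnl2, Tgfbr3, Tanc1, Fkbp5, Zmiz1, Med13l and Actn1. Cpm is one of the 19 domains covered throughout. Among the others named, SETD5-V5 cover at 0 h ranged from 15.8% (A) and 1.74% (B) at Fkbp5 to 94.8% and 80.9% at Meis2, which encodes a homeobox factor. Endogenous SETD5 at 6 h ranged from 2.53% at Ppp3ca to 98.4% at Tgfbr3, which encodes betaglycan. The longest domains thus differed widely in both measures.

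The Tgfbr3 domain, at chr5:107513401-107684400, had endogenous SETD5 over 11.6% at 0 h and 98.4% at 6 h. Its H3K27ac cover was 63.7% and 50.9% at 0 h and 98.9% and 96.7% at 48 h in empty vector cells, and 53.9% and 59.2% against 91.0% and 94.3% in SETD5 cells. Med13l, a Mediator subunit gene, was alike in endogenous SETD5 (12.6% and 94.3%), and its H3K27ac cover was 14.5% and 5.87% against 53.3% and 38.7% in empty vector cells. Ppp3ca, the catalytic subunit of calcineurin, had a domain of 221400 bp with endogenous SETD5 at 0% and 2.53%. Its H3K27ac cover was 6.68% and 7.32% at 0 h and 24.8% and 26.2% at 48 h in empty vector cells, and 9.49% and 10.4% against 37.2% and 47.1% in SETD5 cells. A very long SETD5-V5 domain was therefore found both where H3K27ac covered nearly the whole domain at 48 h and where it covered a minor share.

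Before induction most domains were present in part. SETD5-V5 islands at 0 h covered 67.0% of domain bases in A and 40.8% in B (mean 53.9% ± 18.5, SD, n = 2), against 65.1% and 37.4% without the 19, 52.7% and 25.8% in the next tier and 28.6% and 10.4% in all other islands. Cover was higher in A than in B in 399 of the 447 domains, and B has the shorter list. At least 50% was covered in both 0 h replicates in 180 domains (40.3%), where 6.00% of all 35573 islands were so covered, and in 161 of the 428. In 41 domains (22 of the 428) both replicates covered 90% or more, and in 21 both covered under 10%. An island of 20000 bp or longer was present at 0 h in both replicates in 78 domains (59 of the 428) and in neither in 268. No SETD5-V5 island at 0 h was listed in either replicate for 14 domains. In single replicates, 15 domains had none in A and 74 in B. Of the 1130 next tier islands 178 and 523 had none, and of the 35126 other islands 23893 and 30788. Longer regions meet an island more easily, and length was fixed by the choice. The counts under 10% and of islands of 20000 bp or longer were not made over all islands.

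The 4 longest of these 14 were at Uap1, Foxp1, Hsph1 and Acsl4. Uap1, which makes UDP-N-acetylglucosamine, lay whole in a domain of 71400 bp at chr1:172053201-172124600. Endogenous SETD5 covered 0% of it at 0 h and 62.2% at 6 h. Hsph1, a chaperone gene, lay whole in a domain of 38200 bp at chr5:150401801-150440000 and had 0% and 73.8%. The Foxp1 domain, 60600 bp inside a forkhead factor gene, had 0% and 23.8%, and the Acsl4 domain, inside an acyl-CoA synthetase gene on chromosome X, had 0% at both times. H3K27ac over the Uap1 domain was 5.32% and 9.80% at 0 h and 23.8% and 25.2% at 48 h in empty vector cells, and over the Foxp1 domain 0% and 0% against 32.3% and 38.6%. Over the Acsl4 domain it was 16.0% and 9.63% against 11.2% and 7.49%. The first 3 of these domains thus had endogenous SETD5 islands at 6 h, while Acsl4 had none.

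**Figure D3:**
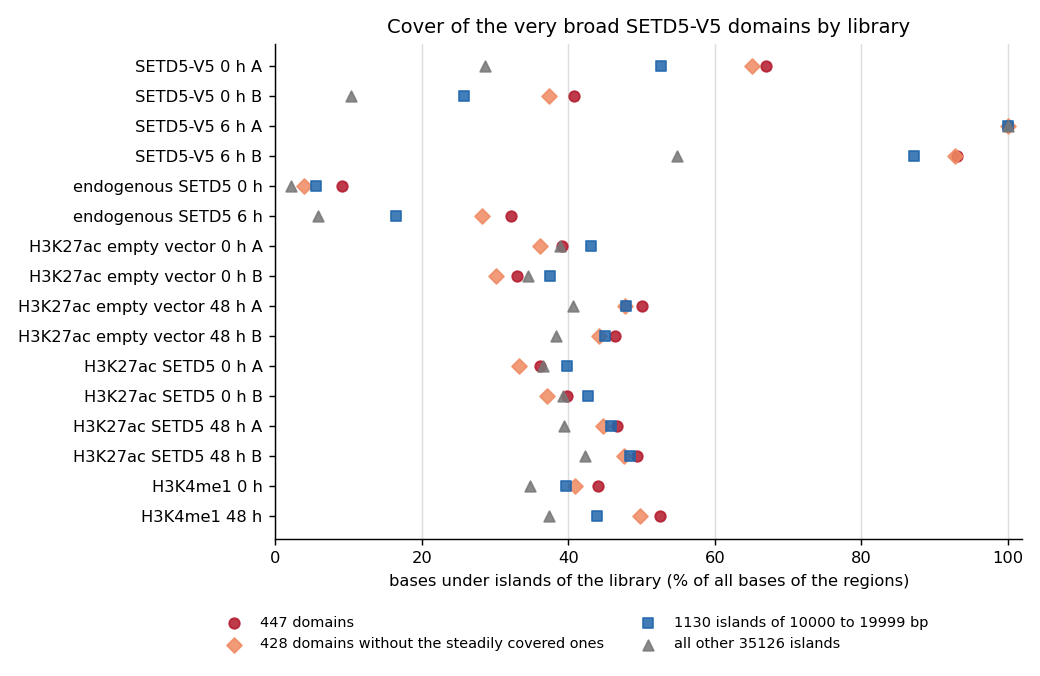
Percent of bases under islands (x axis) of each library (y axis), pooled over the 447 domains (circles), the 428 without the group of 19 (diamonds), the next tier of 1130 islands (squares) and all other islands (triangles). SETD5-V5 at 0 h (67.0% and 40.8%) and endogenous SETD5 at 6 h (32.1%) lie further right over the domains than over the next tier, with or without the 19, and H3K27ac at 0 h does not.

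Endogenous SETD5 in cells without the virus lay over 9.17% of domain bases at 0 h and 32.1% at 6 h. Without the 19, the values were 3.94% and 28.2%. In the next tier they were 5.57% and 16.4%, and in all other islands 2.10% and 5.78%. With 12 islands left out of the next tier by the same rule as the 19, its values were 4.62% and 15.6%. The 6 h list is also the longer of the 2, and with 1 library per time the difference is a description of these libraries. Cover was higher at 6 h than at 0 h in 274 domains and lower in 12, and 193 domains had an endogenous island at 6 h and none at 0 h, while 5 had the reverse. These 4 counts were not made over all islands. An endogenous island met 23.9% of domains at 0 h and 66.0% at 6 h. It met 11.8% and 29.9% of the next tier, and 3.25% and 5.98% of all other islands. At least 50% was covered in 31 domains (6.94%) at 0 h, where 2.15% of all islands were, and in 115 domains (25.7%) at 6 h, where 4.20% of all islands were. Over the 428 these counts were 12 and 96. In 147 domains no endogenous island was listed at either time, among them those at Hk2 and Pvt1.

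The 4 domains with the most endogenous SETD5 at 6 h (Cpm, Cpsf6, Gm15319 and Cwc22) all belong to the group of 19. Outside it, 16 domains had 90% or more at 6 h. Examples by the rule for the longest domains are Tgfbr3 (98.4%), Med13l (94.3%) and Col4a2 (91.4%), where cover at 0 h was 11.6%, 12.6% and 1.17%.

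The question for H3K27ac was whether acetylation over these domains differed between times and between cells with and without the SETD5 virus. H3K27ac islands touched nearly all domains, with 418 of 447 touched in all 8 lists and 2 in none. These counts were not made over all islands, and longer regions meet an island more easily. In empty vector cells H3K27ac islands covered 39.1% (A) and 33.0% (B) of domain bases at 0 h and 50.1% and 46.3% at 48 h. The means were 36.1% ± 4.31 and 48.2% ± 2.70 (SD, n = 2 each), a difference of 12.2 percentage points (11 in A, 13.3 in B; exact permutation test, two-sided p = 0.333). In SETD5 cells cover was 36.1% and 39.9% at 0 h, and 46.7% and 49.3% were covered at 48 h. This was a difference of 10.0 points (10.5 in A, 9.49 in B; exact permutation test, two-sided p = 0.333). Both 48 h values lay above both 0 h values in each vector, and 0.333 is the smallest p that 2 against 2 libraries allow, so no such comparison could pass a threshold of 0.05.

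The domains were then compared with other SETD5-V5 islands within the same H3K27ac lists. Domain cover minus next tier cover was -4.19 ± 0.36 points at 0 h and 1.78 ± 0.68 at 48 h in empty vector cells, and -3.26 ± 0.62 and 0.84 ± 0.07 in SETD5 cells (SD, n = 2 each). These are differences of 5.97 and 4.10 points with the same replicate separation (exact permutation test, p = 0.333 each). Against all other islands the domains were at -0.61 ± 1.17 points at 0 h and 8.70 ± 1.05 at 48 h in empty vector cells. Domains held 6.62% ± 0.04 of all H3K27ac island bases at 0 h and 8.57% ± 0.07 at 48 h in empty vector cells, and 6.85% ± 0.02 and 8.60% ± 0.22 in SETD5 cells (SD, n = 2 each). In pooled cover, the 447 domains as a set thus stood below the next tier at 0 h and above it at 48 h in both vectors. The second of these did not hold with the same rule applied to both sets: the other 428 domains were covered over 47.7% and 44.1% at 48 h in empty vector cells, where the 1118 remaining islands of the next tier had 47.5% and 44.8%, and over 44.7% and 47.7% in SETD5 cells, where they had 45.8% and 48.4%. At 0 h the 428 stayed below them in all 4 libraries, with 36.1% and 30.2% against 42.7% and 37.2% in empty vector cells.

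Counted singly, 154 domains (34.5%) had H3K27ac cover at least 10 points higher at 48 h in both replicates of empty vector cells, where 18.1% of all 35573 islands did, and 22 (4.92%) at least 10 points lower, where 15.1% did. Over the 428 these counts were 153 and 20. In SETD5 cells the counts were 143 (32.0%, against 17.9%) and 30 (6.71%, against 14.5%). Next tier islands had 27.3% and 12.5% in empty vector cells. At least 50% of the domain was acetylated in both empty vector replicates in 109 domains (24.4%) at 0 h, a share under the 32.5% of all islands, and in 182 (40.7%) at 48 h, where all islands had 34.6%. Region length, which the choice fixed, differs between these sets.

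The domains with the largest positive H3K27ac difference between times in empty vector cells were at Errfi1, Ksr1, a position without a gene on chromosome 10, and Fkbp5. The Ksr1 domain, over the beginning of the gene of a scaffold of the Ras and MAP kinase pathway (chr11:78940001-78960000), had 13% and 22% at 0 h and 82% and 93% at 48 h, and 13% and 20% against 80% and 91% in SETD5 cells. The domain at chr10:120057601-120081000 had 0% in all 4 lists at 0 h. At 48 h it had 64.1% and 67.5% in empty vector cells and 26.5% and 41.0% in SETD5 cells, with H3K4me1 at 47.0% and 67.5% at the 2 times. It also had no SETD5-V5 or endogenous SETD5 island at 0 h. The largest negative differences were at Col1a2, Cbx5, Thbs1 and Krt80. The Cbx5 domain, inside the gene of heterochromatin protein 1 alpha, had 69.2% and 65.4% at 0 h and 27.7% and 37.7% at 48 h, and 74.6% and 71.5% against 30.8% and 40.0% in SETD5 cells. The domain named for Krt80, a keratin gene that holds 26.1% of it, had 77.4% and 48.2% against 32.7% and 34.5% in empty vector cells. In SETD5 cells this domain had 48.2% and 60.1% against 42.3% and 35.1%. These 8 were picked as the ends of the range in empty vector cells, so their separation there follows from the choice, and in SETD5 cells the values of the times did not overlap in any of them.

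Between vectors the difference over the domains as a whole was within the replicate spread. At 48 h SETD5 cells minus empty vector cells gave -0.21 points (-3.45 in A, 3.03 in B; exact permutation test, two-sided p = 1), and at 0 h 1.93 points (-2.98 in A, 6.84 in B; p = 0.667 in the same exact test), with the sign opposite in A and B each time. With libraries of the same letter taken as pairs, the difference of 48 h minus 0 h was 10.0 ± 0.74 points in SETD5 cells. In empty vector cells it was 12.2 ± 1.62 (SD, n = 2 each). The 2 differ by -2.14 points at the smallest possible p of 0.333 (exact permutation test). Both SDs and this p rest on that pairing, which is not established, so no conclusion is drawn from them. At 48 h, both SETD5 values lay above both empty vector values in 124 domains and below both in 123. This ordering was not counted over all islands. A difference of at least 10 points in both replicates was found upward in 44 domains (9.84%), where 12.4% of all islands had it, and downward in 46 (10.3%), where 9.19% did. These shares are near those of all islands. The replicate spread leaves room for differences of several points in either direction.

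The domains highest in SETD5 cells relative to empty vector cells at 48 h were at Adamts2, Fam105b and Fbn1. Adamts2, which encodes a procollagen protease, had 48% and 43.4% in empty vector cells and 79.6% and 88.2% in SETD5 cells at 48 h. Fam105b had 16.6% and 10.2% against 42.0% and 49.0%. The Fbn1 domains had 39.6% and 39.2% against 68.8% and 74.2%, and 19.2% and 16.7% against 47.3% and 51.9%. The lowest were 3 domains without a protein-coding gene on chromosome 15 and a domain at Acvr2a, an activin receptor gene, which had 80.0% and 57.7% in empty vector cells and 22.3% and 39.2% in SETD5 cells at 48 h, but also 75.4% and 46.2% against 23.1% and 37.7% at 0 h. These 8 were picked as the ends of the range, so their differences are a description.

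**Figure D4:**
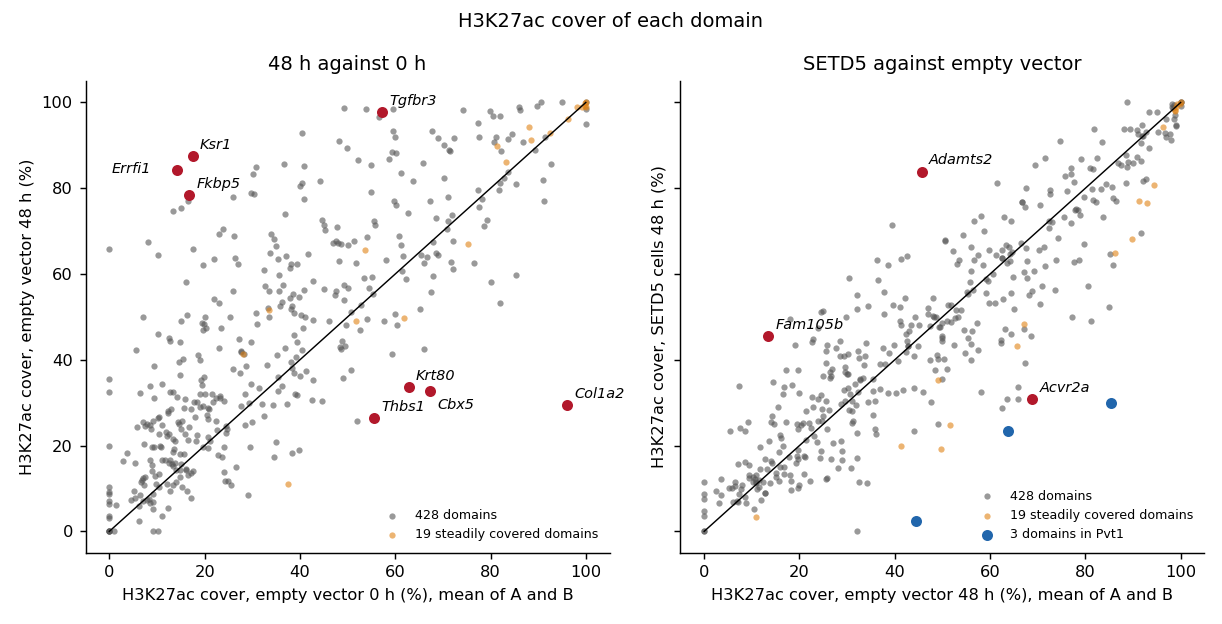
H3K27ac cover of each domain in percent, mean of replicates A and B, with 1 point per domain and a line where both axes are equal: empty vector cells at 48 h (y axis) against 0 h (x axis) on the left, and SETD5 cells (y axis) against empty vector cells (x axis) at 48 h on the right. On the left Errfi1, Ksr1 and Fkbp5 lie far above the line and Col1a2 far below it, and on the right Adamts2 and Fam105b lie above the line and Acvr2a and the 3 Pvt1 domains (blue) below it.

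H3K4me1 covered 44.1% of domain bases at 0 h and 52.5% at 48 h, against 39.7% and 44.0% in the next tier. At least 50% was covered in 178 domains (39.8%, against 33.3% of all islands) at 0 h and in 235 (52.6%, against 35.8%) at 48 h, or 159 and 216 of the 428. H3K4me1 cover was higher at 48 h in 288 domains and lower in 135, counts that were not made over all islands. The Fkbp5 domain had 28.4% and 65.5% and the Foxp1 domain 37.0% and 70.6%, whereas Acsl4 had 0% at both times and the Mir30b domain 20.4% and 3.95%. In the profile of 151 genes, H3K4me1 covered 35.2% of the first 10% at 48 h and 43.4% of the middle, so it was not concentrated at gene beginnings as H3K27ac was.

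There were 25 domains (5.59%) that met no protein-coding gene, of which 6 belong to the group of 19. On chromosome 15, 3 neighbouring domains lay over the long noncoding RNA Pvt1, next to the domain at Myc. They span chr15:61867801-61926000, chr15:61926801-62057600 and chr15:62060401-62105000. SETD5-V5 covered 17.2%, 16.5% and 11.7% of them in A at 0 h and 8.59%, 7.95% and 7.62% in B, and none had an endogenous SETD5 island. In the first, H3K27ac was 63.2% and 46.7% at 0 h and 95.2% and 75.6% at 48 h in empty vector cells, and 33.3% and 39.5% against 26.5% and 33.3% in SETD5 cells. In the longest it was 35.6% and 17.3% against 86.4% and 41.1% in empty vector cells, and 11.8% and 14.4% against 20.8% and 25.8% in SETD5 cells. In the third it was 20.2% and 5.38% against 74.4% and 14.3% in empty vector cells, and 2.24% and 5.38% against 4.93% and 0% in SETD5 cells. The empty vector replicates at 48 h thus differed widely from each other in the domains of 130800 and 44600 bp, and all 3 share 1 locus.

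A domain of 93200 bp at chr6:30996201-31089400 held the genes of Mir29a and Mir29b-1, microRNAs known to target collagen transcripts. SETD5-V5 was at 97.0% and 90.3% at 0 h, and endogenous SETD5 at 13.1% at 0 h and 57.7% at 6 h. H3K27ac was 61.4% and 58.8% against 76.4% and 75.8% in empty vector cells and 62.2% and 72.7% against 78.1% and 80.7% in SETD5 cells. A domain of 30400 bp at chr15:68166401-68196800 held Mir30b and Mir30d. There H3K27ac was 24.3% and 23.7% at 0 h and 12.5% and 15.1% at 48 h in empty vector cells, and 26.3% and 23.7% against 9.87% and 12.5% in SETD5 cells. The nearest start to a domain of 39600 bp at chr2:167582201-167621800 was 67786 bp away, that of Cebpb. This domain had SETD5-V5 at 83.3% and 11.6% at 0 h, and H3K27ac at 88.4% and 83.8% against 98.0% and 98.5% in empty vector cells and 56.6% and 71.2% against 98.0% and 100% in SETD5 cells.

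The 19 domains under endogenous SETD5 and H3K4me1 at all times had 98.5% to 100% of their bases under islands of every SETD5-V5, endogenous SETD5 and H3K4me1 library, and 78.5% to 91.6% under H3K27ac. In 7 of them every one of the 16 lists covered 90% or more. They comprised 1.13 Mb and lay at few places, including chromosome 10 around Cpm and Cpsf6, chromosome 8 from Gm6483 to Gm15319, chromosome 2 at Cwc22 and at Gm14403 and Gm14409, chromosome 5 at Speer4d, chromosome 9 at Gm10718 and chromosome 11 at Sfi1. The Cpm domain, the longest of all at chr10:116927601-117221800, also held Mdm2, which encodes a ubiquitin ligase of p53, and had 99.5% or more in all 16 lists. H3K27ac differed among the 19, and the Gm14409 domain had 0% to 61.8% over the 8 lists and the Speer4d domain 9.09% to 90.2%. Protein-coding genes held 31.7% of the bases of the 19, against 79.9% in the other 428.

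Domains were unevenly spread over chromosomes. Chromosome 15 held 87 of them (19.5%), with 7.33% of all SETD5-V5 islands at 6 h and 3.56% of protein-coding genes. Chromosome 2 held 61 (13.6%, against 10.2% of islands), chromosome 6 held 47 (10.5%, against 7.05%) and chromosome 19 held 38 (8.50%, against 4.01%), so these 4 had 52.1% of the domains and 28.6% of the islands. SETD5-V5 at 0 h also had much of its length on chromosome 15 (13.4% in A and 12.7% in B), while H3K27ac had 6.01% to 6.62% there, H3K4me1 7.30% and 7.36%, and endogenous SETD5 3.38% and 4.84%. The other 3 chromosomes were not alike in this. H3K4me1 had 13.3% and 13.5% of its length on chromosome 6, and endogenous SETD5 16.6% and 13.7% on chromosome 2. Over the 4 chromosomes together H3K4me1 had 37.1% and 37.4%, and endogenous SETD5 31.9% at both times. SETD5-V5 at 6 h had 34.2% and 39.1% there, and H3K27ac 24.5% to 27.3%. The part of chromosome in the results was not tested. On the other chromosomes 214 domains remained, with 78.7% of their bases in protein-coding genes, SETD5-V5 at 0 h over 62.3% and 38.9%, and endogenous SETD5 at 6 h over 36.6%. On chromosome 15 endogenous SETD5 at 6 h covered 15.5%. H3K27ac on the other chromosomes was 38.8% and 33.8% at 0 h and 52.7% and 50.1% at 48 h in empty vector cells. The base content of the domains was close to that of other islands, with 45.0% G and C in both, against 41.8% in the genome, and 12.5 CpG per 1000 bp against 13.6.

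**Figure D5:**
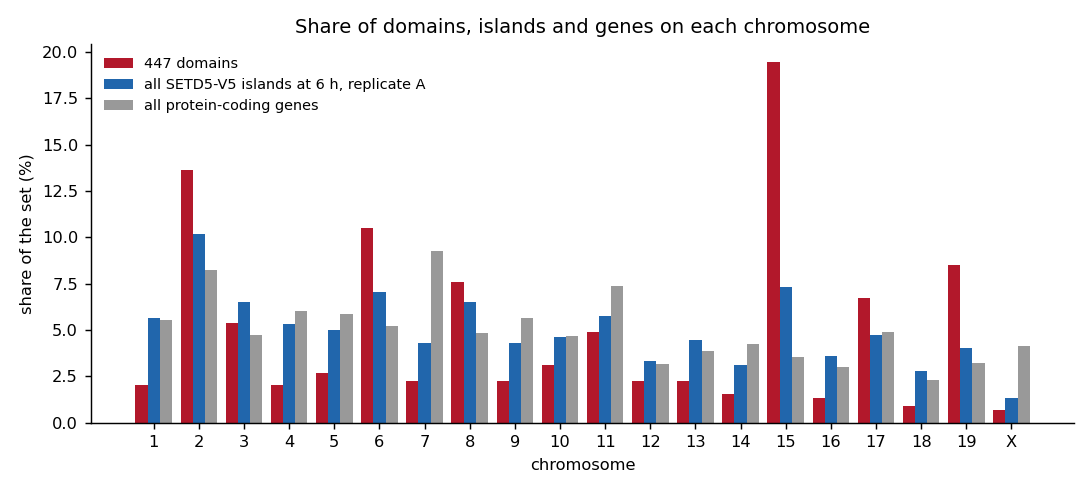
Percent of the 447 domains on each chromosome beside the percent of all 35573 SETD5-V5 islands of replicate A at 6 h and of protein-coding genes (y axis, percent; x axis, chromosome). Chromosome 15 has 19.5% of the domains, 7.33% of the islands and 3.56% of the genes.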

How the data were processed

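Reads were aligned to mm9 by the authors, who called islands library by library with SICER. Bowtie2, SICER and deepTools are named in the submitters' processing notes without versions, and whether an input library was used is not given in the sources used here. Each deposited list holds chromosome, start, end and the score that the authors' caller gave each island, and no read counts. Island starts were multiples of 200 bp, and the smallest gaps were 600 bp in the histone lists and 800 bp in the SETD5 lists. All 22 chromosome names matched NCBIM37, which is mm9, and 0 islands passed a chromosome end. Genes came from GENCODE for that build.

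Cover is the percentage of a region's bases under islands of a library. Scores were used only to rank islands within a list. Cover was compared over libraries with two-sided exact permutation tests. Domains were named by the protein-coding gene sharing most bases. Named domains were the 12 longest in both replicates, the 4 at each end of 0 h cover, of H3K27ac change and of the vector difference at 48 h, the 4 highest in endogenous SETD5, those at the length minimum, those without a gene, and listed genes covered over 50%. Of these, 1 domain among the 12 longest is not reported here. The members and gene lists were chosen with earlier results of these data known. Alternatives were length minima of 15000 and 25000 bp, replicate B domains, 50% overlap, the shared stretch, islands above the median score, equal island numbers (31000 for H3K27ac, 6000 for SETD5-V5, 2000 for endogenous SETD5), all annotated genes, leaving out each replicate, and a replicate block. Leaving out the 19 domains covered throughout (and such islands of the next tier) or chromosomes 15, 2, 6 and 19, and a crossed block, were added after seeing the data. Python 3.11.15, numpy 2.4.6, scipy 1.17.1 and matplotlib 3.10.9 were used, and the domain search was tested on 1194 simulated islands.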

Additional observations from a re-analysis of the deposited data

Results flagged for a closer look

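In 22 of the 447 domains H3K27ac cover moved in one direction from 0 h to 48 h in both replicates of empty vector cells and in the other direction in both replicates of SETD5 cells. Of these, 6 are listed with values. None of these differences was tested. How many of all islands did so was not counted, so no background share stands beside the 22.

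The Pvt1 domain of 58200 bp on chromosome 15 was 32.0 and 28.9 points higher at 48 h in empty vector cells (A and B) and 6.87 and 6.19 points lower in SETD5 cells. The change in SETD5 cells minus that in empty vector cells was -36.9 points. The Lox domain of 29000 bp, over the gene of lysyl oxidase, which cross-links collagen, was 11.7 and 24.1 points lower in empty vector cells and 6.21 and 23.4 points higher in SETD5 cells, a difference of 32.8 points. The other 4 lie together on chromosome 8, within the group of 19 under SETD5 and H3K4me1 throughout. The same difference was -23.9 points in the Gm6483 domain, -27.5 in the 4930467E23Rik domain of 48000 bp, -21.2 in the domain of 49600 bp without a protein-coding gene and -23.4 in the Gm15319 domain of 88600 bp.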

How the results depend on the processing

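Of 76 alternative values, 64 were labelled the same, 7 moved and 5 reversed. The H3K27ac differences were judged by sign alone, where 40 kept it and 5 reversed. The other results were judged by whether they stayed in a set range around the main value. The replicate blocks change only the p, so their label was fixed in advance. So was that of single replicates of SETD5-V5 at 0 h, which always lie within the SD of their mean. The number of domains was 843 at a minimum of 15000 bp and 294 at 25000 bp, and 214 without chromosomes 15, 2, 6 and 19. Domain bases in protein-coding genes were 80.9% when all annotated genes were taken. Endogenous SETD5 cover at 6 h was 37.4% over the stretch shared by both replicates, 26.2% with islands above the median score and 27.9% with equal island numbers. The difference between vectors at 48 h was 0.26 points without the 19 domains, 1.03 without the 4 chromosomes and 0.062 with islands above the median score, each with the sign opposite to the main value and none past the threshold. The causes were not tested.

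Leaving out each replicate in turn gave SETD5-V5 cover at 0 h of 40.8% to 67.0%, differences between times of 11 to 13.3 points in empty vector cells and 9.49 to 10.5 in SETD5 cells, and differences between vectors of -2.98 to 6.84 points at 0 h and -3.45 to 3.03 at 48 h. The vector differences at 0 h without B (-2.98) and at 48 h without A (3.03) were reversed. Over the other alternatives the difference between times was 10.7 to 15.1 points in empty vector cells and 9.05 to 13.6 in SETD5 cells. With the replicate letter as a replicate block the differences of 12.2 and 10.0 points between times had exact p = 0.5, the smallest that 2 pairs allow, and those of 1.93 and -0.21 points between vectors p = 1. Deviations of same-lettered libraries correlated at 0.34, -0.03, -0.17 and 0.12 in these comparisons, and with 2 pairs this does not establish that the letters pair the libraries. In the crossed pairing at 0 h, A of each vector was set against B of the other, and both differences were positive. The exact p was 0.5, again the smallest that 2 pairs allow, so no call was possible. With 2 libraries a group no test could reach 0.05, and without read counts islands near the caller's threshold cannot be told from absent ones.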
